A study of Mus musculus with 9 samples.

Results

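The isozymes of glycolysis, lactate production and pyruvate oxidation were followed here through 10 genes, Aldoa, Gapdh, Gapdhs, Pgk1, Pgk2, Ldha, Ldhb, Ldhc, Pdha1 and Pdha2, of the 22337 genes in the expression table. They were found by gene symbol and filled 11 rows of the table, because 2 gene records carry the symbol Aldoa. The table came from RNA sequencing of whole testes of mice aged 3 weeks, 3 of them wild-type (WT-WT), 3 heterozygous for the allele Piwil4 R264W (Piwil4 WT/R264W, WT-KI) and 3 homozygous for it (Piwil4 R264W/R264W, KI-KI). The knock-in allele was made by CRISPR-Cas9 in C57BL/6 zygotes and puts tryptophan in the place of arginine in PIWIL4, which belongs to the PIWI proteins of the male germ line, and no group received a treatment. The labels do not say whether the 3 samples of a genotype came from separate animals or litters, so the p-values measure the spread between these samples. The estimated counts of a testis added up to 18.0 M at the least and 24.3 M at the most, and 3 counts, the most that a count of 0 allows, made 0.124 to 0.167 CPM (counts scaled to library size) for counting error only. All 11 rows passed the filter on low counts. Piwil4 had 18 to 46 counts per testis, and these counts cannot show which allele they came from.

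Male germ cells replace much of their glycolytic machinery as they mature. Spermatocytes and spermatids depend on lactate that Sertoli cells deliver, whereas the sperm tail makes ATP by glycolysis along the fibrous sheath, with isozymes found almost nowhere else in the body. LDHC is the lactate dehydrogenase of sperm, and GAPDHS is the glyceraldehyde-3-phosphate dehydrogenase of spermatids and is bound to the fibrous sheath. PGK2, a phosphoglycerate kinase, and PDHA2, the E1 alpha subunit of the pyruvate dehydrogenase complex, are encoded by autosomal copies of X-linked genes, and the X chromosome is silenced in meiotic spermatocytes.

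In the GENCODE models (GRCm38), these relations were visible in the gene structures. Pgk2 (ENSMUSG00000031233) lay on chromosome 17 and Pdha2 (ENSMUSG00000047674) on chromosome 3, each with 1 exon, whereas Pgk1 (ENSMUSG00000062070) and Pdha1 (ENSMUSG00000031299) lay on the X chromosome with 11 exons each. Ldha (ENSMUSG00000063229) and Ldhc (ENSMUSG00000030851) were both on chromosome 7, with 8 exons each, and Ldhb (ENSMUSG00000030246) was on chromosome 6, also with 8. Gapdhs (ENSMUSG00000061099) had 11 exons on chromosome 7 and Gapdh (ENSMUSG00000057666) 7 exons on chromosome 6. The main Aldoa record (ENSMUSG00000030695) had 10 exons on chromosome 7, and the second (ENSMUSG00000114515) was a 4-exon model on the same chromosome and strand. The coding sequences of each testis isozyme and its partner were 73.2% identical for Ldhc and Ldha, 79.3% for Pgk2 and Pgk1, 69.6% for Gapdhs and Gapdh and 75.6% for Pdha2 and Pdha1. The longest run of bases shared within such a pair was 22.

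The start regions of the testis isozymes are shown because 3 of these 4 genes rose with the maturity of the testes below, and that of Pgk1 to set it beside its retrogene Pgk2. The windows come from RefSeq (GRCm38.p6), run from 250 bases before to 50 after the start site, and are written 5′ to 3′ on the strand of the gene. Where a gene had several starts, the one nearest to the GENCODE start is given. Capitals mark every match, on either strand, to a CRE half-site (TGACG), an RFX half-site (GTTGCC), a GC box (GGGCGG) or a TATA box (TATAAA). Matches that overlap were counted separately, as in the last 2 GC boxes of Pgk1.
Ldhc, chr7:46861013-46861312, plus strand: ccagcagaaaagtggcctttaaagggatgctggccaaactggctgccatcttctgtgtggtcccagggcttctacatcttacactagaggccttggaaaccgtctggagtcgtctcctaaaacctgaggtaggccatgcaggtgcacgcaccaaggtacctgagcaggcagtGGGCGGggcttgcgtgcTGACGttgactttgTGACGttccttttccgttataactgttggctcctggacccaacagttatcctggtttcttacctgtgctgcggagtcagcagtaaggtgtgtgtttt
Pgk2, chr17:40208560-40208859, minus strand: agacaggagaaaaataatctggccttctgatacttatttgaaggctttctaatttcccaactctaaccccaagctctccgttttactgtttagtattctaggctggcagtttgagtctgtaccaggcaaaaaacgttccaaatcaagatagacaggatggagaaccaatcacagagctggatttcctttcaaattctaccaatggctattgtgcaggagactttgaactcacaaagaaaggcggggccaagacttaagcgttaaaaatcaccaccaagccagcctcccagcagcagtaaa
Pgk1, chrX:106186850-106187149, plus strand: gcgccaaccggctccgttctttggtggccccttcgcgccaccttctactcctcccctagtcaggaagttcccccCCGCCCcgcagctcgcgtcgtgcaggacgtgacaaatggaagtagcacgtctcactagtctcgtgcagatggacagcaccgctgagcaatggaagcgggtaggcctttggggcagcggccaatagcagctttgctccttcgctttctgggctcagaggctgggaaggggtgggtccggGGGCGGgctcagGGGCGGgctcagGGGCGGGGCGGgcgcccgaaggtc
Gapdhs, chr7:30743632-30743931, minus strand: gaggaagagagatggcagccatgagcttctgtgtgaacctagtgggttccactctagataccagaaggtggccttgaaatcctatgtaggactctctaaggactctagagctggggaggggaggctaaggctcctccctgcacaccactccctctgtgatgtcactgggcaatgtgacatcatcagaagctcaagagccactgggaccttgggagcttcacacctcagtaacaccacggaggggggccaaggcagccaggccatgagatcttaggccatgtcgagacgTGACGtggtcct
Pdha2, chr3:141212306-141212605, minus strand: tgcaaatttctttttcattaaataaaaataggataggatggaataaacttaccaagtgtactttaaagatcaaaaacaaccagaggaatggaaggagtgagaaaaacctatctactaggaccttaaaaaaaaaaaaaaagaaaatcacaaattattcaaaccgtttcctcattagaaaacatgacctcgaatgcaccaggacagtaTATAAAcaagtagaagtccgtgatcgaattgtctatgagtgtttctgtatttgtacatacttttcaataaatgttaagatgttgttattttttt
The Ldhc window held 2 CRE half-sites, beginning at positions -61 and -47 relative to the start site at 0, and 1 GC box at position -78. The Pgk2 window held none of the 4 motifs, whereas the Pgk1 window held 5 GC boxes. In the Gapdhs window the only match was a CRE half-site at position 38, and in the Pdha2 window it was a TATA box at position -44. CRE half-sites were not limited to testis isozymes. Of the partners whose windows are not shown, Ldha had 1 at position -143 and Pdha1 had 1 at position -1, whereas Gapdh had 0. The other Ldha start had 2 CRE half-sites, at positions -12 and -9 on opposite strands, and 3 GC boxes. GC content ran from 29.7% for Pdha2 and 43.0% for Pgk2 to 53.3% for Ldhc, 55.7% for Gapdhs and 66.7% for Pgk1. Over all 32851 windows of the same length, 20.8% held a CRE half-site, 12.5% an RFX half-site, 35.7% a GC box and 13.6% a TATA box. A match is a run of letters and was not tested as a binding site.

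Levels are given as FPKM (fragments scaled to transcript length and sequencing depth), the length-scaled unit that the authors deposited, in which genes can be compared with each other. The isozymes together made up 0.723% to 0.855% of the summed FPKM of a testis. Ldhc was the highest, with a lowest, median and highest FPKM of 1945, 2079 and 2335, and it was above Ldha in 9 of 9 testes. Ldha, the muscle-type lactate dehydrogenase subunit, had 557, 606 and 685 FPKM and stood above Pgk2 in 9 of 9 testes without overlap of the ranges. Pgk2 and Gapdh were not separated, since Pgk2 was the higher in 3 of 9 testes. Ldhb, the heart-type subunit, and Aldoa were not separated either, with Ldhb the higher in 6 of 9. Pdha2 was below Aldoa in 9 of 9 testes. Gapdhs, Pgk1 and the second Aldoa record followed with overlapping ranges. Pdha1 had the lowest median, with a lowest, median and highest FPKM of 4.73, 5.96 and 6.31. In heterozygous testis 3, however, Gapdhs had 4.0 FPKM and was below Pdha1, with 6.29 FPKM.

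**Figure D1:**
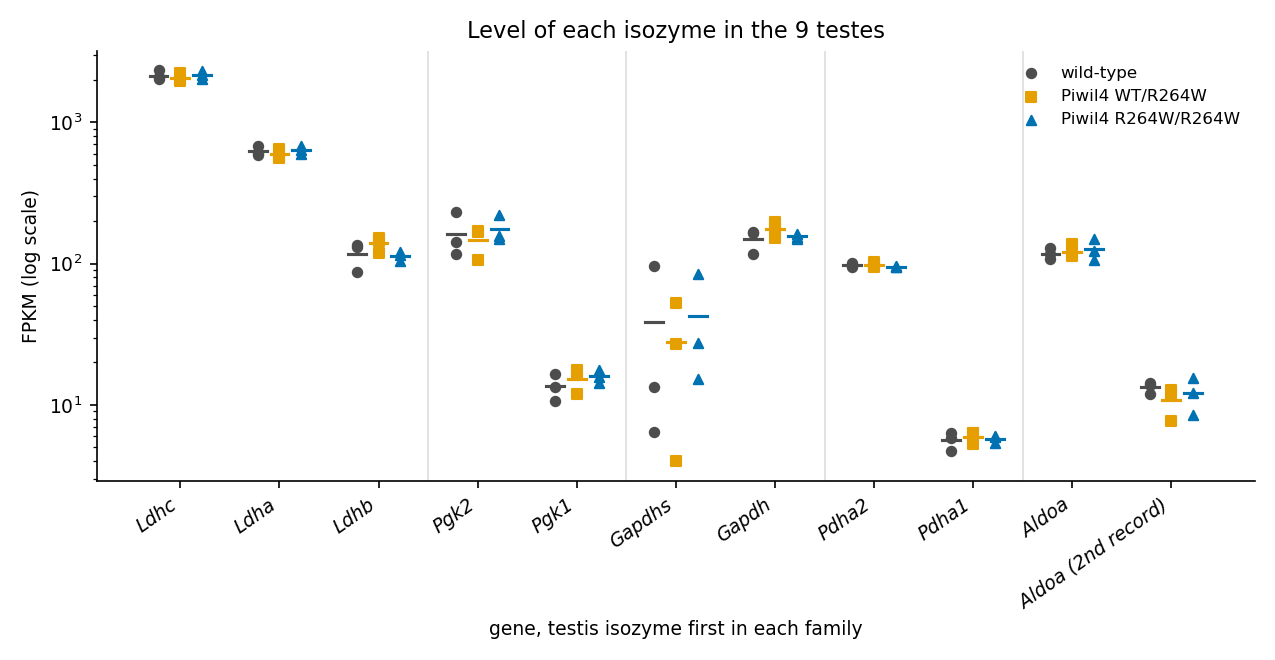
FPKM of the 11 gene records (log axis) in the 9 testes, coloured by genotype, with a bar at the mean of each group of 3. Gapdhs spans 4.0 to 95.7 FPKM with the 3 genotypes interleaved, whereas Pdha2 stays between 94.0 and 103 FPKM.

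The spread over testes differed widely between isozymes. Gapdhs varied 23.9-fold between its lowest and highest testis, Pgk2 varied 2.16-fold, and the other main records varied between 1.10-fold for Pdha2 and 1.75-fold for Ldhb. At 3 weeks the first wave of spermatogenesis is under way, and its progress was read from a round spermatid score, the mean log2 CPM of 15 spermatid genes of which none is an isozyme studied here. The score was 5.65, 3.26 and 2.39 in wild-type testes 1 to 3, 4.83, 4.22 and 1.81 in the heterozygous testes and 3.30, 4.07 and 5.50 in the homozygous testes. The groups overlapped, with means of 3.76 ± 1.69, 3.62 ± 1.60 and 4.29 ± 1.12 (SD, n = 3 each). Every gene was then fitted on the score over all 9 libraries, with no genotype term, by the quasi-likelihood test of edgeR, and p-values were adjusted by Benjamini-Hochberg. A slope is the change in log2 CPM per unit of score. The score comes from the same libraries as the isozymes, and in whole testes fewer cells of a type and less RNA per cell cannot be told apart.

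Of the 11 records, 5 rose with the score (Gapdhs, Pgk2, Aldoa, Ldhc and Ldha), 1 fell (Ldhb) and 5 did not pass the test. Among all 15771 genes tested, 20.3% rose and 13.7% fell. The median slope of the 11 records was 0.09, beside -0.02 over all genes. Cell type markers moved with the score as well. All 7 genes listed for elongating spermatids rose, which does not show that such cells were present. Of the pachytene spermatocyte markers 6 of 10 rose and 1 fell, and 6 of 9 early meiotic markers fell while 1 rose. Among 7 tested spermatogonial markers, 3 fell and 1 rose. Of the somatic lists, 1 of 4 peritubular markers fell and 0 rose, 1 of 5 macrophage markers rose and 0 fell, and 0 of 3 red blood cell markers passed. Further, 4 of 8 Sertoli cell markers fell and 1 rose, and 3 of 7 Leydig cell markers rose and 0 fell. The summed level ran from 1477 to 2459 CPM for the Sertoli list and from 183 to 449 CPM for the Leydig list, with the genotypes overlapping. No marker of the Sertoli or the Leydig list had a count of 0 when summed over the 9 testes. Skeletal muscle genes summed to at most 4.57 CPM. The part of these cell types in the slopes was not tested.

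Aldolase cleaves fructose-1,6-bisphosphate in the upper part of the pathway. Aldoa had 128, 117 and 108 FPKM in the wild-type, 137, 115 and 113 in the heterozygous and 106, 124 and 148 in the homozygous testes. Within each of the 3 genotypes, its order followed that of the score. Its slope was 0.15 (SE 0.02, adjusted p = 3.24e-04), a gain of 10.7% per unit of score, and it passed in 19 of 19 alternative analyses, with a slope of 0.10 in the 2 fits of limma to the FPKM values. The second Aldoa record, a short model on the chromosome and strand of the main one, had 7.71 to 15.4 FPKM. Its slope of 0.14 (SE 0.07, adjusted p = 0.118) did not pass and varied with single libraries, being 0.06 (adjusted p = 0.572) without heterozygous testis 3 and 0.21 (adjusted p = 0.0404) without wild-type testis 3. It also passed with the replicate number as a block (slope 0.21, adjusted p = 0.0333), and in no other alternative.

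Glyceraldehyde-3-phosphate dehydrogenase follows, and here the 2 isozymes parted most clearly. Gapdhs, the spermatid form, had 95.7, 13.4 and 6.48 FPKM in the wild-type testes. In the heterozygous testes it had 52.4, 27.2 and 4.0 FPKM, and in the homozygous testes 15.3, 27.6 and 84.5 FPKM. High and low testes occurred in every genotype, and in all 3 genotypes the order of the testes was that of the score. The slope of Gapdhs was 1.21 (SE 0.03, adjusted p = 5.99e-14), a 2.31-fold gain per unit. Only 2 of the 15771 genes had a smaller p, and 1.86% had a larger slope. Gapdh, the form of most tissues, had 117, 166 and 168 FPKM in the wild-type, 196, 152 and 175 in the heterozygous and 155, 163 and 150.3 in the homozygous testes. Its slope was -0.03 (SE 0.04, adjusted p = 0.509). Without heterozygous testis 1, which had the highest Gapdh, the slope was -0.06 and passed (adjusted p = 0.0426), and without wild-type testis 1, which had the lowest, it was 0.02 (adjusted p = 0.765). Gapdh counts were not whole numbers in any library, and the sources used here do not say how reads shared between genes were counted.

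Gapdhs was below Gapdh in 9 of 9 testes. Its share of the summed FPKM of the pair was 2.24% in the testis with the lowest score, 14.5% in the median testis and 44.9% in the testis with the highest score. The log2 ratio of Gapdhs to Gapdh counts rose by 1.25 per unit of score (SE 0.05, exact permutation p = 2.76e-06, two-sided, n = 9), and this p is the smallest that the 362880 pairings of ratio and score can give. Without the 2 testes farthest from the median score (heterozygous testis 3 and wild-type testis 3) the slope was 1.24 (exact p = 1.98e-04). This was the steepest of the 4 pairs compared, for which p-values are unadjusted.

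**Figure D2:**
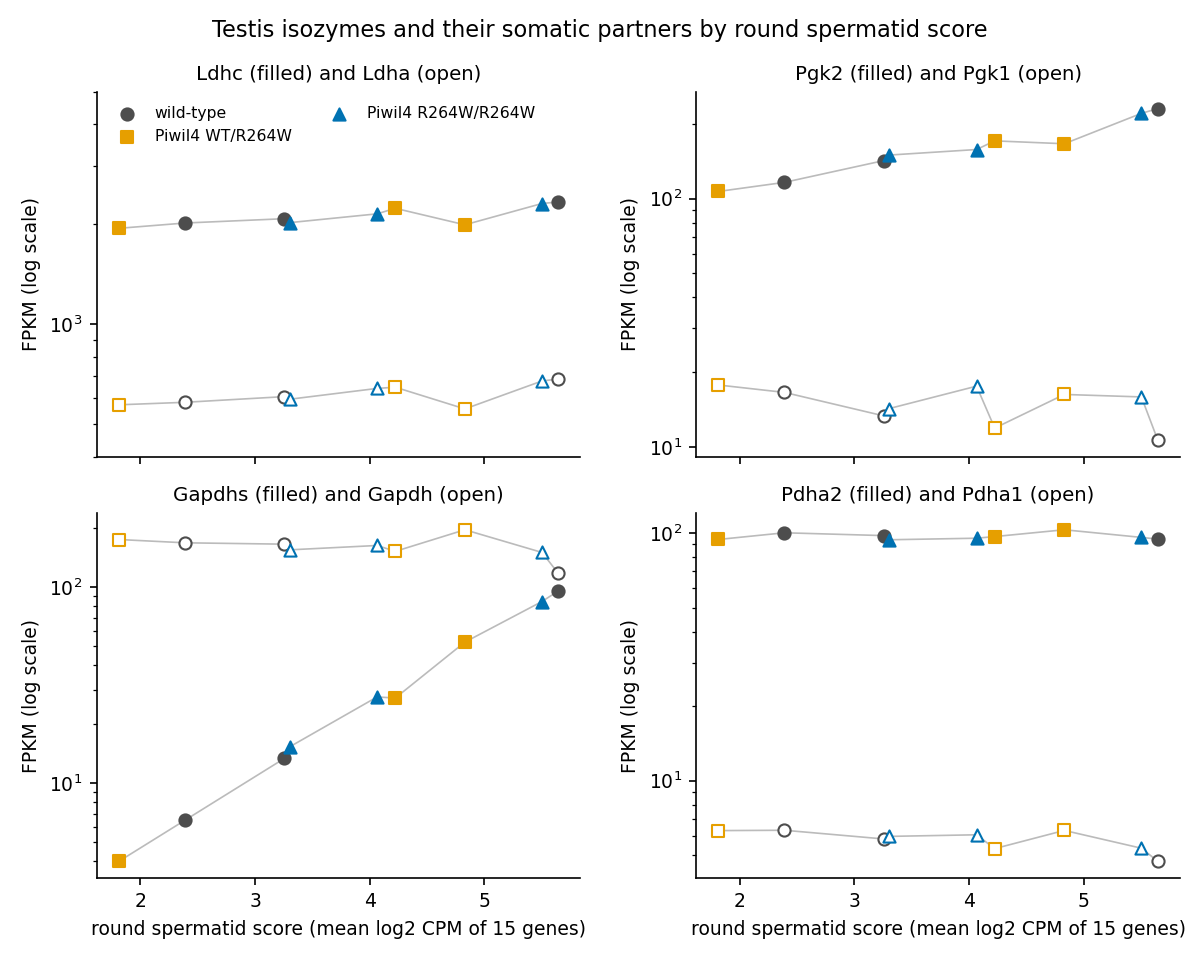
FPKM (log axis) of each testis isozyme (filled) and its somatic partner (open) against the round spermatid score, 1 point per testis, coloured by genotype and joined in order of score. Gapdhs climbs from 4.0 to 95.7 FPKM towards the level of Gapdh, Ldhc and Ldha run in parallel, and Pdha2 and Pdha1 stay nearly level.

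Phosphoglycerate kinase makes the first ATP of the pathway. Pgk2, the meiotic and spermatid form, had 231, 142 and 116 FPKM in the wild-type, 166, 171 and 107 in the heterozygous and 149.9, 158 and 221 in the homozygous testes. It was highest in the wild-type and the homozygous testis with the highest scores, and lowest in the 2 testes with the lowest scores. Its slope was 0.31 (SE 0.03, adjusted p = 9.33e-08), a gain of 24.0% per unit, and it passed in 19 of 19 alternatives. Pgk1, on the X chromosome, had 10.6, 13.3 and 16.6 FPKM in the wild-type, 16.3, 11.9 and 17.7 in the heterozygous and 14.3, 17.6 and 15.9 in the homozygous testes. With a slope of -0.05 (SE 0.05, adjusted p = 0.469) it did not pass, and the sign was not stable, being 0.01 without the 2 testes farthest from the median score.

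Pgk2 exceeded Pgk1 in 9 of 9 testes, by 6.03-fold at the lowest score and 21.7-fold at the highest in FPKM. Its share of the pair ran from 85.8% to 95.6%. The log2 ratio of Pgk2 to Pgk1 counts rose by 0.36 per unit of score (SE 0.08, exact permutation p = 0.00283, n = 9). Without the 2 testes farthest from the median score the slope was 0.30 with an exact p of 0.0927, so it did not pass with the remaining 7 libraries. Heterozygous testis 1 stood below the trend, with a ratio of 10.25 at a score of 4.83, while testis 2 of that genotype had 14.4 at a score of 4.22.

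Lactate dehydrogenase interconverts pyruvate and lactate. Ldhc had 2335, 2079 and 2018 FPKM in the wild-type, 1993, 2234 and 1945 in the heterozygous and 2023, 2150.1 and 2309 in the homozygous testes. Ldha followed the same course, with 685, 606 and 583, then 557, 647 and 573, then 595, 642 and 675 FPKM in the same order. In both genes the testis of highest score was the highest of its genotype among wild-type and among homozygous testes, but not among heterozygous testes. The slopes were small and of like size, 0.10 for Ldhc (SE 0.02, adjusted p = 0.00302) and 0.09 for Ldha (SE 0.03, adjusted p = 0.0111). Ldhc passed in 18 of 19 alternatives, the exception being the fit without the 2 testes farthest from the median score (adjusted p = 0.144). Ldha passed in 13 of 19 and was lost without wild-type testis 1 (adjusted p = 0.0687), heterozygous testis 3 (adjusted p = 0.0576) or homozygous testis 3 (adjusted p = 0.0548), each left out singly. It was also lost without the 2 testes farthest from the median score (adjusted p = 0.205) and in the 2 fits of limma to the FPKM values, where its slope was 0.05 (adjusted p = 0.0733 and 0.0669) and that of Ldhc 0.06 (adjusted p = 0.0474 and 0.0341).

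The ratio of Ldhc to Ldha was the steadiest of the 4 pairs. It lay between 3.35 and 3.58 in FPKM, so that Ldhc made up 77.0% to 78.2% of the pair in every testis. The log2 ratio of counts had a slope of 0.01 per unit of score (SE 0.01, exact permutation p = 0.327, n = 9). Ldhb had 87.3, 135 and 131 FPKM in the wild-type, 146, 119 and 153 in the heterozygous and 121, 115 and 105 in the homozygous testes. It was the single record to fall, with a slope of -0.10 (SE 0.04, adjusted p = 0.0485). That call was held in 6 of 19 alternatives and in the fits without single libraries was kept only when heterozygous testis 1 or homozygous testis 1 was the one left out, whereas the slope was negative in 19 of 19. Without wild-type testis 1 it was -0.06 (adjusted p = 0.262).

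The pyruvate dehydrogenase complex turns pyruvate into acetyl-CoA in the mitochondrion. Pdha2 was the most even of the isozymes, with 94.5, 97.7 and 100.3 FPKM in the wild-type, 103, 96.8 and 94.2 in the heterozygous and 94.0, 95.3 and 96.1 in the homozygous testes. Its slope was 0.04 (SE 0.02, adjusted p = 0.135), and it passed in 1 of 19 alternatives, DESeq2 (adjusted p = 0.0394). Pdha1 had 4.73, 5.82 and 6.31 FPKM, then 6.30, 5.32 and 6.29, then 5.96, 6.05 and 5.34, with a slope of -0.04 (SE 0.03, adjusted p = 0.376). As for Gapdh, its counts were not whole numbers in any library. Pdha2 exceeded Pdha1 by 14.98-fold to 19.98-fold in FPKM and made up 93.7% to 95.2% of the pair. The log2 ratio of Pdha2 to Pdha1 counts rose by 0.08 per unit of score (SE 0.02, exact permutation p = 0.0101, n = 9). Without the 2 testes farthest from the median score it was 0.09 with an exact p of 0.0818, so it did not pass with the remaining 7 libraries.

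Other genes of glucose and pyruvate metabolism were taken from 4 lists with 42 genes in all. The lists were chosen with earlier results of these data known, so their shares are a description. For comparison, 20.3% of all 15771 genes tested rose with the score and 13.7% fell. Of 14 tested genes of glucose uptake and upper glycolysis, 8 rose with the score and 0 fell. In lower glycolysis 3 of 7 rose and 0 fell, in the list of lactate and pyruvate handling 3 of 7 rose and 1 fell, and among the pyruvate dehydrogenase complex and its kinases 1 of 10 rose and 1 fell. The retrogenes Aldoart1 and Aldoart2, intronless copies of Aldoa that encode sperm aldolases, had the smallest p of these lists. Aldoart2 had a lowest, median and highest FPKM of 5.87, 27.8 and 63.1 and a slope of 0.95 (SE 0.03, adjusted p = 6.87e-13), and Aldoart1 had 1.62, 8.36 and 21.1 FPKM and a slope of 0.94 (SE 0.04, adjusted p = 1.11e-11). Their coding sequences were 91.7% and 93.9% identical to that of Aldoa, and the counts of all these aldolase genes were whole numbers. Across all 9 testes the main Aldoa record, with at least 106 FPKM, was above both. Eno1b, a near copy of Eno1 that was named after its values were seen, had a steeper slope (1.408) at no more than 7.11 FPKM, and its counts were not whole numbers.

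Hk1, a hexokinase of the first step of the pathway, had 106, 163 and 311 FPKM and rose with a slope of 0.51 (SE 0.03, adjusted p = 5.92e-10). Slc16a7, a transporter of lactate and pyruvate, had 35, 60.2 and 135 FPKM and a slope of 0.53 (SE 0.04, adjusted p = 1.02e-08). Smaller gains were measured for Eno4, an enolase of sperm (slope 0.21, adjusted p = 2.11e-05), for the phosphoglycerate mutase Pgam2 (0.16, adjusted p = 2.78e-04) and for the lactate dehydrogenase-like Ldhal6b (0.09, adjusted p = 0.00366). Pgam2, at 383 to 578 FPKM, and Ldhal6b, at 449.8 to 529 FPKM, were among the abundant genes of the lists. Eno1, the widely expressed enolase, had a slope of 0.06 (adjusted p = 0.056), and the glucose transporter Slc2a3, the most abundant of these genes at 851 to 1066 FPKM, had -0.03 (adjusted p = 0.428). The 2 genes that fell were Pdk1, a kinase that inhibits pyruvate dehydrogenase (-0.17, adjusted p = 7.91e-05), and Slc16a1, another lactate transporter (-0.11, adjusted p = 0.0211). Pdk2, a kinase of the same family, rose instead (0.21, adjusted p = 2.7e-04). It had 36.4 to 65.1 FPKM, beside 6.05 to 10.3 FPKM for Pdk1. Pdk3 (adjusted p = 0.0896) and Pdk4 (adjusted p = 0.0934) did not pass.

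**Figure D3:**
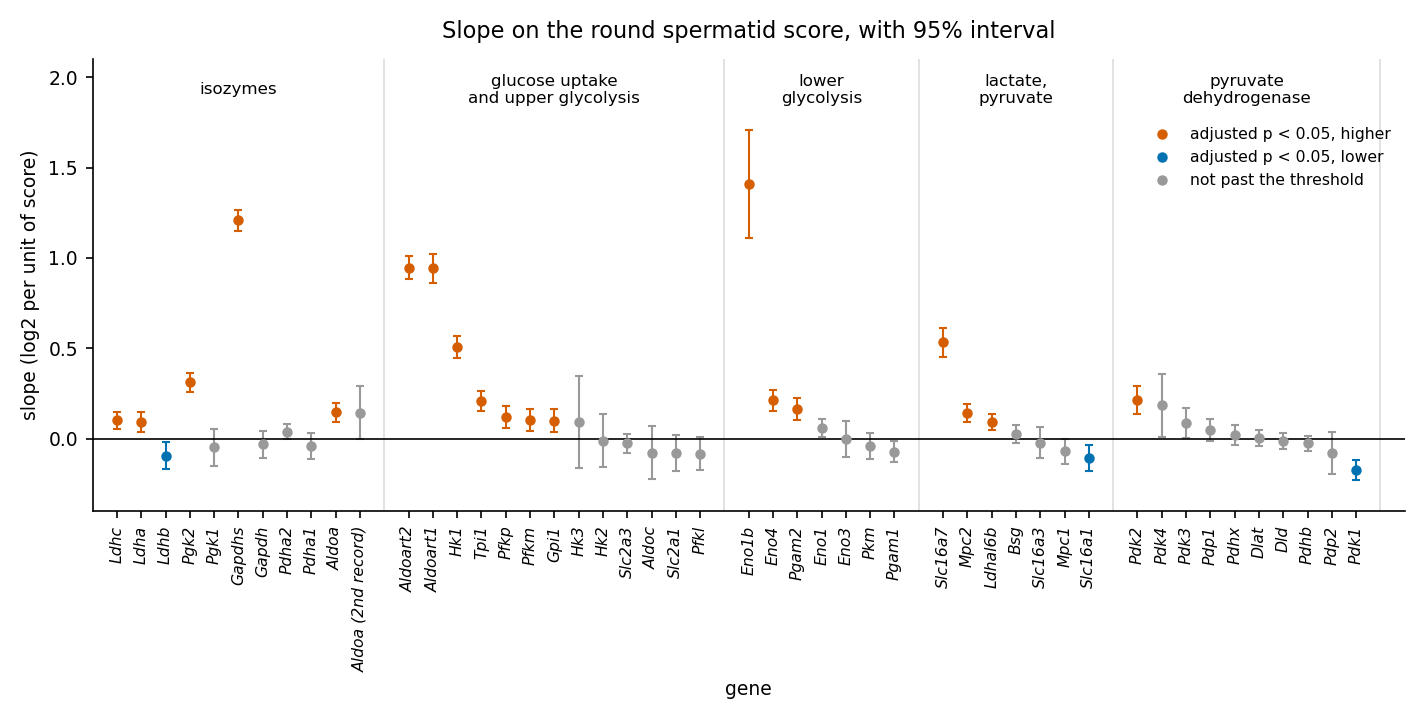
Slope of log2 CPM per unit of round spermatid score for the 11 isozyme records and for tested genes of the 4 pathway lists, with 95% intervals from edgeR. Gapdhs at 1.21, Aldoart2 at 0.95 and Aldoart1 at 0.94 stand far above Pgk2 at 0.31 and Ldhc at 0.10. Eno1b, at no more than 7.11 FPKM, has the steepest slope shown, 1.408. The intervals of the somatic forms Gapdh, Pgk1 and Pdha1 include 0, as do those of the testis form Pdha2 and the second Aldoa record. Those of Ldha and the main Aldoa record lie above 0, and that of Ldhb lies below.

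The genes whose pattern over the 9 testes was most like that of a testis isozyme were found by Pearson's r of log2 CPM, as a description, since all of them share the same libraries. For Gapdhs these were Kif2b, a kinesin (r = 0.9996), Prr30 (0.9994) and Trim36 (0.9994), which spanned 6.80 to 122, 2.5 to 44.9 and 4.8 to 90.7 FPKM. For Pgk2 they were Ngly1 (r = 0.997), Bag5 (0.997) and Cfap206 (0.997), and for Ldhc they were Nsun2 (0.992), Pebp4 (0.991) and Odf4 (0.991), an outer dense fibre gene. Pdha2, with little variation to match, had lower values, led by Col6a4 (r = 0.950), LXEJ02004842.1 (0.937) and Dnai3 (0.931). These spanned 3.05 to 5.98, 0.02 to 0.06 and 43.4 to 50.7 FPKM, so the record LXEJ02004842.1 was close to 0 in every testis.

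No isozyme passed the test in any comparison of genotypes. In each of the 3 comparisons of genotypes, edgeR's quasi-likelihood test on the 6 libraries called 0 genes at an adjusted p under 0.05 (0%), isozymes included, and the comparisons share libraries. At an unadjusted p under 0.05 there were 196 genes (1.26%) between homozygous and wild-type testes, 343 (2.22%) between homozygous and heterozygous testes and 171 (1.11%) between heterozygous and wild-type testes. DESeq2 called 2, 6 and 0 genes at an adjusted p under 0.05 in the same order, and no isozyme was among them. Adjusted p-values of the isozymes were between 0.948 and 0.9998.

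For Gapdhs, mean levels were 38.5 ± 49.6, 27.9 ± 24.2 and 42.4 ± 36.9 FPKM in wild-type, heterozygous and homozygous testes (SD, n = 3 each). The log2 fold change between homozygous and wild-type testes was 0.11 with a 95% interval from -2.53 to 2.76. In the fit of all 9 libraries it was 0.11 (SE 1.15), and with the score added to that fit 0.06 (SE 0.08, adjusted p = 0.9994). The unadjusted p of the latter, 0.714 by the quasi-likelihood test, was larger than that SE alone would give. Gapdhs followed the score closely, and the score was measured in the same libraries. A fit with the score therefore gives the genotype difference at equal score only, and its small SE does not apply to the whole difference between genotypes. Pgk2 had means of 163 ± 60.0, 148 ± 35.8 and 176 ± 38.8 FPKM and a log2 fold change of 0.09 (95% interval -0.68 to 0.87). With the score, again in the fit of all 9 libraries, the log2 fold change of Pgk2 was -0.02 (SE 0.08). Ldhc had 2144 ± 168, 2057 ± 155 and 2161 ± 144 FPKM, with a log2 fold change of 0.01 (95% interval -0.35 to 0.37). The narrowest interval in this comparison was that of Pdha2, from -0.20 to 0.12 around -0.04.

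Ldhb had the smallest unadjusted p of the isozymes in any comparison, with a log2 fold change of -0.26 (SE 0.10, adjusted p = 0.948) between homozygous testes, at 114 ± 8.10 FPKM, and heterozygous testes, at 139 ± 17.7 FPKM. The 2 groups overlapped in CPM. In CPM, 1 of the 11 records had groups that did not overlap across the 3 comparisons, the second Aldoa record, which was lower in heterozygous than in wild-type testes (log2 fold change -0.34, SE 0.23, adjusted p = 0.9998). In FPKM these 2 groups did overlap, with 11.9 in the lowest wild-type and 12.7 in the highest heterozygous testis. Of all genes tested, 5.32% did not overlap in CPM in that comparison, 5.69% did not between homozygous and wild-type testes and 7.15% did not between homozygous and heterozygous testes, where 0 of the 11 records stood apart.

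**Figure D4:**
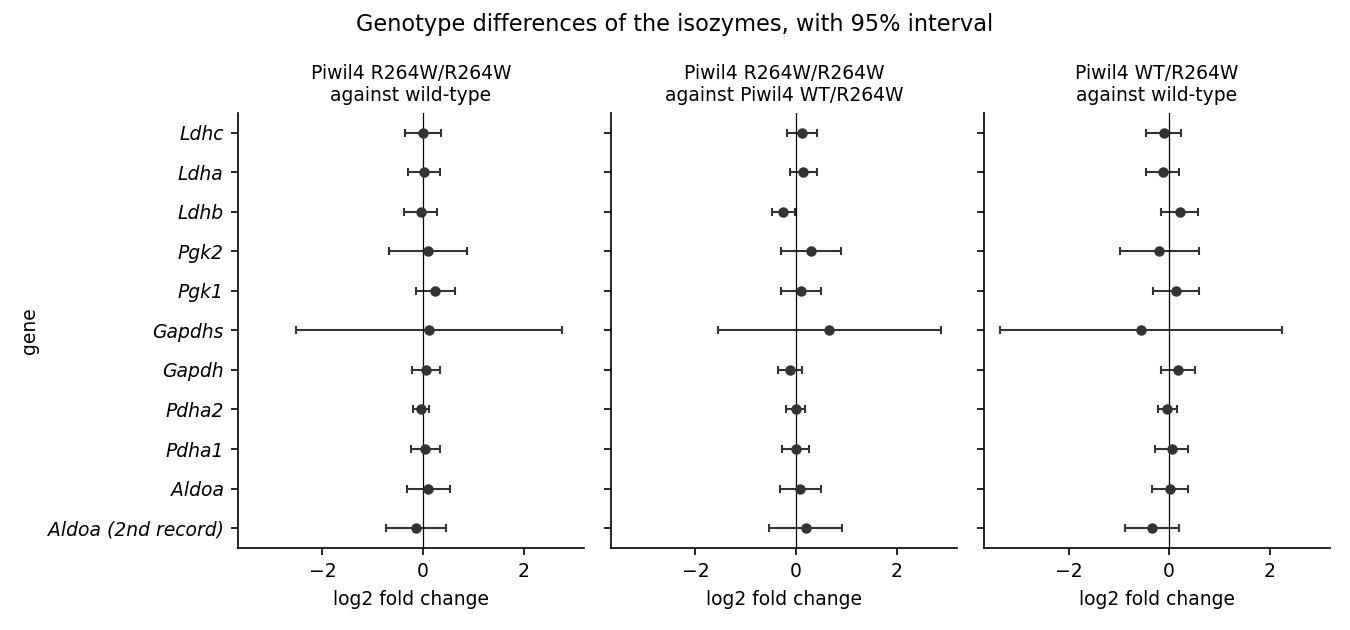
Log2 fold change of the 11 isozyme records in the 3 comparisons of genotypes, with 95% intervals from edgeR on 3 against 3 testes. The interval of Gapdhs, from -2.53 to 2.76 in the first panel, is the widest of its panel, and that of Ldhb in the middle panel is the single one that excludes 0, with an adjusted p of 0.948.

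The balance of testis and somatic isozymes was also compared between genotypes, by an exact two-sided permutation test of the log2 count ratio, which for 3 against 3 gives no p below 0.1. The ratio of Ldhc to Ldha was 1.28 ± 0.01 in wild-type, 1.31 ± 0.05 in heterozygous and 1.27 ± 0.02 in homozygous testes on the log2 scale (SD, n = 3 each). For Gapdhs to Gapdh it was -2.88 ± 2.27, -3.27 ± 1.86 and -2.25 ± 1.27 in the same order. Over the 4 pairs and 3 comparisons the exact p-values lay between 0.4 and 1, and every difference was smaller than the larger SD of its groups.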

How the data were processed

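The 9 samples of whole mouse testes, aged 3 weeks, were sequenced by mRNA-seq, and samples were grouped by the genotype in their titles. The authors deposited 1 table with an FPKM value and an estimated count (an expected count, not scaled for library size) per gene and testis. The submitters' processing notes name fastp 0.18.0, StringTie 1.3.1, DESeq2 and the build mm39. The aligner and the counting tool are not given in the sources used here. Whole numbers made up 89.2% of the deposited estimated counts, and how reads shared between genes were counted is not stated. No column of per-sample values was left unused (0), and the table gives no coordinates, so gene models are from GENCODE for GRCm38 and start regions from RefSeq for GRCm38.p6, both older than the build of the counts. All 10 isozyme genes had a RefSeq window.

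Counts were rounded and fitted in R 4.3.3 with edgeR 4.0.16 (filterByExpr, TMM, quasi-likelihood test, two-sided, Benjamini-Hochberg over all genes tested, adjusted p under 0.05), for 2 genotypes at a time and on the round spermatid score (log2 CPM with a prior count of 1). The log2 ratio of a pair used counts plus 0.5, and its slope on the score was tested over all pairings in Python 3.11.15 with numpy 2.4.6. Isozymes, marker lists and pathway lists were chosen with earlier results of these data known. Pathway genes named are the 3 with the smallest p in each direction on the score, any past the threshold in a genotype comparison, and Aldoart1, Aldoart2, Ldhal6b, Pgam2, Eno4, Hk1, Eno1, Slc2a3 and Slc16a7 in any case. Eno1b, Pdk2, Pdk3 and Pdk4 fall outside this rule. A further result from the pathway lists is in their counts but not reported here. For the 4 testis isozymes the 3 genes with the highest r are named. The labels do not say that replicate numbers pair the samples, so the main fits did not use them. Alternatives were DESeq2 1.42.0, its size factors in edgeR, limma 3.58.1 on log2(FPKM + 1) and log2(FPKM + 0.1) (mean FPKM of 0.5 or more), no filter, a minimum of 10 counts in each library, 1 fit of all 9 libraries, the score or the genotype as further terms, a pachytene spermatocyte score, the replicate number as a block, and libraries left out. The fits were tested on simulated data. The changes planted between genotypes were larger than the isozyme differences of the main fits, so that test did not cover differences as small as these.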

Additional observations from a re-analysis of the deposited data

How the results depend on the processing

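The slopes of Gapdhs, Pgk2 and Aldoa on the score kept their direction and passed in 19 of 19 alternatives, and Pgk1, with 0 of 19, and Pdha1, with 0 of 19, never passed. Of the isozyme records called lower (1), none (0) was called with DESeq2 size factors, with DESeq2, with at least 10 counts in every library, with genotype as further terms, with the replicate block or without the 2 testes farthest from the median score, and 0 to 2 were when single libraries were left out. Without those 2 testes, 3 records rose, and 1737 genes rose and 242 fell, beside 3195 and 2159 with all 9. Genes called lower numbered 3424 and 3432 with limma on log2(FPKM + 1) and log2(FPKM + 0.1). Leaving out single libraries gave 854 to 3277, with 1251 without wild-type testis 1, 1382 without wild-type testis 3, 3277 without heterozygous testis 1, 854 without heterozygous testis 3 and 903 without homozygous testis 3. The slope of Pgk2 to Pgk1 was 0.3013 and that of Pdha2 to Pdha1 0.09208 without the 2 farthest testes, neither past the threshold with 7 libraries. The slope of Pgk1 was then 0.005275, and that of Gapdh ran from -0.06366 to 0.01524 when single libraries were left out. The causes were not tested.

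Between genotypes, DESeq2 called 2 genes for homozygous against wild-type and 6 against heterozygous, and with the score as a covariate 1 gene was called for homozygous against heterozygous and 1 for heterozygous against wild-type, where 0 were called otherwise. No isozyme was called under any alternative, and the signs of their small log2 fold changes were not stable. With the score as a covariate, homozygous against wild-type gave Ldha -0.02249, Ldhb 0.00839, Ldhc -0.04114 and Pgk2 -0.01548, and homozygous against heterozygous gave Pdha1 0.01543 and Aldoa -0.02513. In the latter comparison Pdha1 was 0.004203 and Pdha2 0.004503 with DESeq2 size factors, and 0.003652 and 0.004268 with DESeq2. Pdha2 was 0.007576 and 0.00764 with limma in heterozygous against wild-type.

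Signs that turned when single libraries were left out were, for homozygous against wild-type, those of Ldha (-0.06161 to 0.1387), Ldhb (-0.1904 to 0.05529), Ldhc (-0.08779 to 0.1215), Pgk2 (-0.1436 to 0.4913), Gapdh (-0.05422 to 0.1317), Gapdhs (-0.9142 to 2.139), Pdha1 (-0.03042 to 0.1088), Aldoa (-0.0665 to 0.2427) and the second Aldoa record (-0.4036 to 0.06665). For homozygous against heterozygous they were those of Pgk1 (-0.047 to 0.1924), Gapdhs (-0.3658 to 1.449), Pdha1 (-0.07487 to 0.04434), Pdha2 (-0.05484 to 0.04081), Aldoa (-0.08678 to 0.2132) and the second Aldoa record (-0.06331 to 0.4053). For heterozygous against wild-type they were those of Ldhc (-0.1767 to 0.01318), Pgk2 (-0.4125 to 0.2051), Gapdhs (-1.346 to 1.48), Pdha1 (-0.02045 to 0.1255), Pdha2 (-0.0784 to 0.01011) and Aldoa (-0.09619 to 0.1591).

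Replicate numbers are shared between genotypes. Deviations of same-numbered testes from their genotype means correlated by 0.7135, -0.07379 and 0.784 between wild-type and heterozygous testes 1, 2 and 3. Between homozygous testes and the others, the correlations were negative for numbers 1 and 3, down to -0.734. The score fell from testis 1 to 3 in wild-type and heterozygous testes and rose in homozygous testes. Replicate number and score can therefore not be told apart within a genotype. With the replicate number as a block, 0 genes were called in each genotype comparison, and on the score 3121 genes rose and 1869 fell, with 6 isozyme records higher and 0 lower.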
